A study of Mus musculus with 8 samples.

Results

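The circadian clock genes described here are Per1, Per2, Per3, Cry1, Cry2, Arntl, Clock, Nr1d1, Nr1d2 and Dbp, 10 of the 23413 gene symbols counted. They were listed by name, and the list was selected on the same levels in the same mice that are given below. The levels are therefore a description, and no test of a member is used as support. RNA was sequenced from tumor-associated macrophages (TAMs) of 8 male C57BL/6 mice with subcutaneous B16F10 melanoma, 1 library per mouse. B16F10 is a mouse melanoma cell line, and no engineered allele is named for the mice. They were 8 to 10 weeks old when the tumor cells were injected. Each mouse was dosed 6 and 12 days later, and the macrophages were sorted on day 18 as CD45+F4/80+CD11b+Gr-1- cells. The vehicle DMSO was given to 2 mice, and the route is not stated for them. Thiostrepton, a thiopeptide antibiotic, was given to 4 mice by intraperitoneal injection (I.P.) at a dose not stated for these mice. Another 2 mice received it by paratumor subcutaneous injection (S.C.), given in the tumor growth experiments at 20 mg/kg, a route the sample labels call IS. The paper describes that dose as lower than the I.P. doses of those experiments. Route and dose therefore cannot be told apart between the I.P. and S.C. mice.

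The clock is a feedback loop of transcription. ARNTL (BMAL1) and CLOCK bind E-box sequences as a pair and switch on the Per and Cry genes, whose proteins return to the nucleus and block that pair. The same pair drives Nr1d1 and Nr1d2, which encode the repressors REV-ERBα and REV-ERBβ, and these shut off Arntl through sites called ROREs, shared with the ROR activators. Dbp encodes a PAR bZIP factor that is driven through E-boxes and itself acts on D-box sequences. Macrophages carry such a clock, and it is known for setting the daily course of their inflammatory output. Levels of many of these transcripts depend on the hour of the day. The mice lived under 12-h light and dark cycles, and the hour at which each was killed is not given in the sources used here, so that hour and treatment cannot be told apart.

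The promoter sequences were searched for motifs through which the members are known to act on each other. RefSeq start sites on GRCm38.p6 were found for 9 of 10 members (all but Per2), with 13 windows of 300 bases. The motifs searched on both strands were the E-box CACGTG, the D-box TTATGNAA and the RORE. Among all 32851 windows of that length, 7.15% held the E-box, 3.38% the D-box and 0.384% the RORE. Members with a motif in a window were Per1, Per3, Cry1 and Arntl. The motif is in capitals and positions are counted from the first transcribed base.
Per1 E-box, chr11:69098753-69098818, plus strand, 166 bases upstream: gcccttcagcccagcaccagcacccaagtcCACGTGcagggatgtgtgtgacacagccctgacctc
Per1 D-box, chr11:69098917-69098940, plus strand, 24 bases upstream: gcctggcaTTATGCAAcccgcctc
Cry1 E-box, chr10:85185079-85185144, minus strand, 60 bases upstream: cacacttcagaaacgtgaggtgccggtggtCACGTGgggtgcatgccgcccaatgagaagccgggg
Per3 D-box, chr4:151044833-151044900, minus strand, 205 bases upstream: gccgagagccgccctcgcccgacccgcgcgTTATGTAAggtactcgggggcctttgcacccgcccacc
Per3 D-box, chr4:151044786-151044853, minus strand, 158 bases upstream: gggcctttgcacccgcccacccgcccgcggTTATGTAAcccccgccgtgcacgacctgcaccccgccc
Arntl RORE, chr7:113207529-113207555, plus strand, 26 bases downstream of its second start: gaaggcagAAAGTAGGTCAgggacgga
Windows of Cry2, Clock, Dbp, Nr1d1 and Nr1d2 held none of these letters, which says only that they are not in those windows.

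Libraries held 14127506 to 17577466 counts. The levels below are CPM, a gene's counts over the scaled library total, with totals scaled by edgeR's TMM method over all 8 mice, and a floor of 3 counts was 0.168 to 0.217 CPM, for counting error only. Summed macrophage markers (9 genes, Csf1r and Cd68 among them) lay between 10140 and 15070 CPM, and 0 of them were at 0 in any mouse. Summed melanoma markers (7 genes, none at 0 in any mouse) were at 599 and 671 CPM in the DMSO mice, 458 to 1719 in the I.P. mice, and 2925 and 695 in S.C. mice 1 and 2. Neutrophil markers (9 of 10 found, up to 5 at 0) lay between 38.1 and 84.2 CPM except in S.C. mouse 2, at 339, and lymphocyte markers (10 of 11 found, up to 8 at 0) between 0.489 and 8.99 except in the S.C. mice, at 43.7 and 30.9. Libraries of both S.C. mice stood apart by gaps. Of the 9325 genes that averaged 5 CPM or more, 0.525% and 0.365% were without a single read there, against 0.0107% to 0.129% in the other 6 mice. Summed erythroid markers (4 genes) were at 51.3 and 239 CPM in the DMSO mice, at 2.97, 51.1, 15.8 and 0 in I.P. mice 1 to 4, and at 330 and 38.6 in the S.C. mice. All I.P. mice thus lay below both DMSO mice for these markers, but I.P. mouse 2 was nearly level with DMSO mouse 1. The part of these markers in the I.P. comparisons was not tested. Fibroblast and endothelial markers (7 genes, 1 to 6 at 0) ran from 1.12 to 9.60 CPM.

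Per1, a repressor that also answers quickly to hormones and cytokines, was the member for which every treated mouse, by either route, lay above both DMSO mice. Per1 lies on chromosome 11 from 69095217 to 69109960 (GRCm38). It was at 1.02 and 2.42 CPM in the DMSO mice, or 15 and 42 counts. In I.P. mice 1 to 4 it was at 22.8, 3.49, 3.81 and 5.40 CPM. In the S.C. mice it was at 11.7 and 5.20 CPM. I.P. mouse 1 was the highest of the treated mice and I.P. mouse 2 the lowest. Group means were 1.72 ± 0.99 (SD, n = 2) for DMSO, 8.88 ± 9.33 (SD, n = 4) for I.P. and 8.43 ± 4.57 CPM (SD, n = 2) for S.C. In bulk RNA, a change in the share of cells that carry a transcript and a change in its amount per cell cannot be told apart.

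The log2 fold change of Per1, from edgeR's quasi-likelihood fit on all genes, was 2.34 (standard error 0.92) by I.P. and 2.28 (standard error 0.91) by S.C. Both comparisons rest on the same DMSO mice, so the values are not independent of each other. Without I.P. mouse 1 the value by I.P. was 1.27, and without DMSO mouse 1 or 2 it was 1.87 or 3.11. By S.C. it was 1.79 and 3.03 without those DMSO mice and 1.57 and 2.71 without S.C. mouse 1 or 2. Without either DMSO mouse, Per1 missed the study's criterion for a changed gene by both routes. By S.C. it also missed it with library size only (2.13) and with all 3 groups in 1 fit (2.31). The same held by S.C. with mouse numbers fitted as a block, as labelled or crossed. Between the routes Per1 differed by -0.05 (standard error 0.86), and by 1.04 without I.P. mouse 1.

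**Figure D1:**
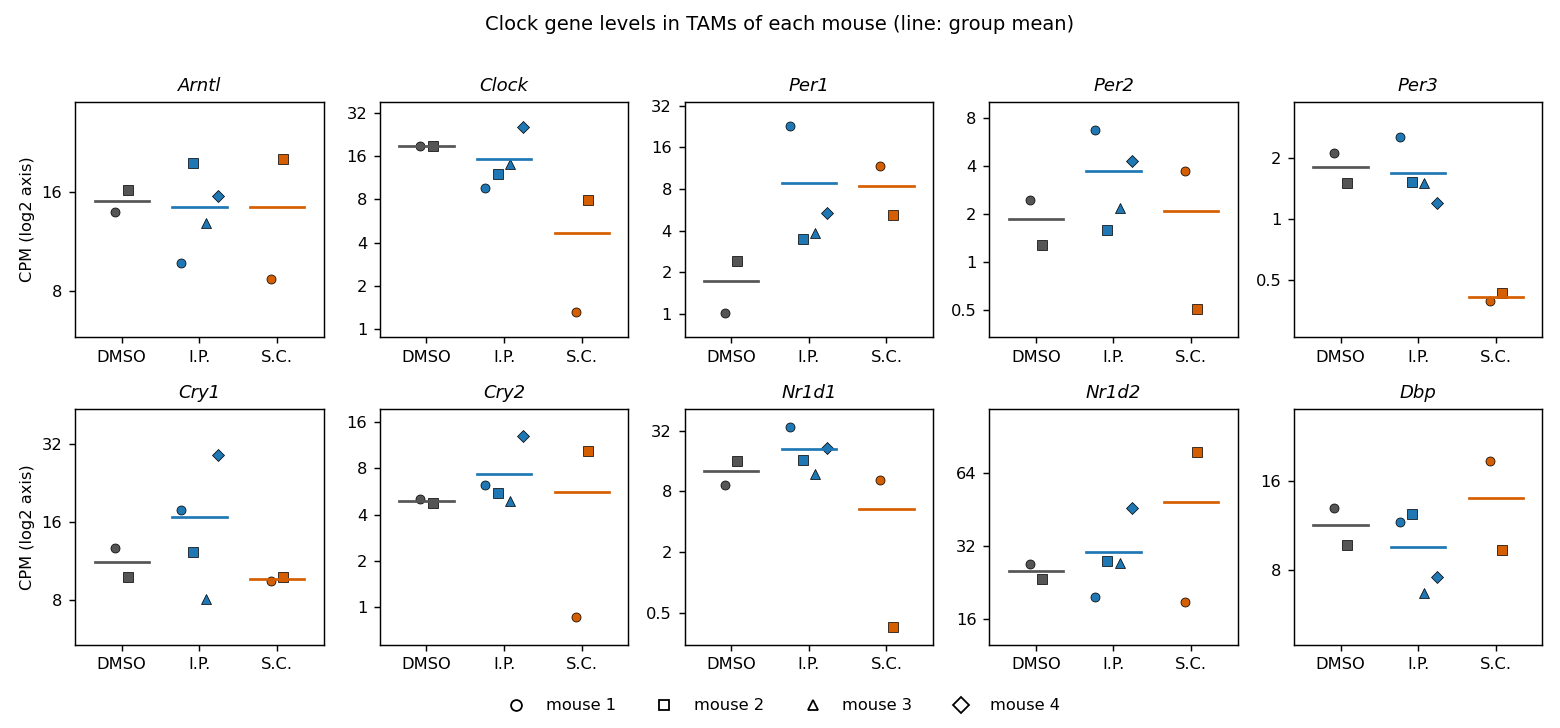
CPM of the 10 clock genes in each mouse on log2 axes, by group (grey DMSO, blue I.P., orange S.C.), with a symbol shape for each mouse number and the group mean as a line. Per1 is the gene whose 6 treated mice all sit above the DMSO mice, and the S.C. mice lie far apart for Clock, Per2, Cry2, Nr1d1 and Nr1d2.

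The other Per genes did not share that order. Per2, on chromosome 1 from 91415982 to 91459324, encodes the partner repressor of PER1. It was at 2.45 and 1.27 CPM in the DMSO mice, 6.76, 1.59, 2.19 and 4.32 in I.P. mice 1 to 4, and 3.69 and 0.506 in the S.C. mice. The DMSO mice lay below I.P. mice 1 and 4 and around I.P. mice 2 and 3, and the S.C. mice lay on either side of them. Its log2 fold change was 0.99 (standard error 0.71) by I.P. and 0.18 (standard error 1.25) by S.C., where S.C. mouse 2 had 7 counts (exact Poisson interval at 95%, 2.81 to 14.4). By S.C. it was -1.86 without S.C. mouse 1 and 0.97 without S.C. mouse 2.

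Per3, the remaining Per gene, on chromosome 4 from 151003652 to 151044665, was at 2.11 and 1.5 CPM in the DMSO mice and at 2.53, 1.53, 1.51 and 1.2 in I.P. mice 1 to 4. In both S.C. mice it had 6 counts (95% Poisson interval 2.2 to 13.1), which is 0.395 and 0.433 CPM. The S.C. mice thus lay below all 6 other mice, while the I.P. mice overlapped the DMSO mice. For Per3 edgeR gave a log2 fold change of -0.10 (standard error 0.61) by I.P., which was 0.17 without DMSO mouse 1, and of -2.10 (standard error 1.08) by S.C.

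The Cry genes encode the repressors that hold ARNTL and CLOCK inactive. Cry1, on chromosome 10 from 85131700 to 85185064, was at 12.7 and 9.82 CPM in the DMSO mice. It was at 17.8, 12.2, 8.13 and 29.0 CPM in I.P. mice 1 to 4, and at 9.49 and 9.82 CPM in the S.C. mice. The I.P. mice spread to both sides of the DMSO mice, and the S.C. mice were close to each other, with S.C. mouse 2 level with DMSO mouse 2. The fitted log2 difference for Cry1 was 0.56 (standard error 0.47) by I.P. and -0.22 (standard error 0.53) by S.C.

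Cry2, on chromosome 2 from 92403646 to 92434043, was at 5.04 and 4.79 CPM in the DMSO mice, 6.19, 5.5, 4.88 and 13.0 in I.P. mice 1 to 4, and 0.857 and 10.3 in the S.C. mice. I.P. mouse 4 was above the other I.P. mice for Cry1, Cry2, Clock and Nr1d2. Its summed melanoma markers were also above theirs, at 1719 CPM against 458 to 983, and their part in these levels was not tested. The S.C. mice differed 12.1-fold for Cry2 and lay on either side of the DMSO mice. Cry2 had log2 fold changes of 0.57 (standard error 0.48) by I.P. and 0.19 (standard error 1.19) by S.C., the latter 1.06 without S.C. mouse 1 and -2.53 without S.C. mouse 2.

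Of the activators, Arntl differed little between group means. Arntl, on chromosome 7 from 113207465 to 113314126, was at 13.9 and 16.2 CPM in the DMSO mice, 9.73, 19.6, 12.9 and 15.5 in I.P. mice 1 to 4, and 8.70 and 20.1 in the S.C. mice. The group means were 15.1 ± 1.65 (SD, n = 2), 14.4 ± 4.19 (SD, n = 4) and 14.4 ± 8.05 CPM (SD, n = 2). I.P. mouse 1 and S.C. mouse 1 were the lowest, and both groups straddled the DMSO mice. The standard errors of its log2 fold change, 0.33 by I.P. and 0.58 by S.C., were larger than the change itself. By S.C. the change was 0.41 without S.C. mouse 1 and -0.82 without S.C. mouse 2, and by I.P. it ran from -0.24 (without I.P. mouse 2) to 0.08 (without I.P. mouse 1).

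Clock, on chromosome 5 from 76209868 to 76304792, was at 18.9 CPM in both DMSO mice. It was at 9.67, 12, 14.1 and 25.7 CPM in I.P. mice 1 to 4, and at 1.32 and 7.95 CPM in the S.C. mice. S.C. mouse 1 had 20 counts of it, against 110 in S.C. mouse 2 and 278 and 327 in the DMSO mice. Both S.C. mice lay below all other mice, and 3 of 4 I.P. mice lay below both DMSO mice. As a log2 fold change this was -2.03 (standard error 0.90) by S.C. and -0.31 (standard error 0.39) by I.P. By S.C. it was -1.26 without S.C. mouse 1 and -3.86 without S.C. mouse 2.

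The REV-ERB genes lay on opposite sides of the other mice in S.C. mouse 2. Nr1d1, on chromosome 11 from 98767932 to 98775333, was at 9.33 and 16.2 CPM in the DMSO mice and at 35.1, 16.3, 11.9 and 21.7 in I.P. mice 1 to 4. In S.C. mouse 1 it was at 10.3 CPM with 157 counts, and in S.C. mouse 2 at 0.361 CPM with 5 counts (95% Poisson interval 1.62 to 11.7). Nr1d2, on chromosome 14 from 18204054 to 18239127, was at 26.9 and 23.3 CPM in the DMSO mice and at 19.8, 27.8, 27.1 and 45.7 in I.P. mice 1 to 4. In the S.C. mice it was at 18.8 and 77.7 CPM. S.C. mouse 2 thus had the lowest Nr1d1 and the highest Nr1d2 of all 8 mice, and I.P. mouse 1 had the highest Nr1d1 with a Nr1d2 below both DMSO mice.

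Nr1d1 had log2 fold changes of 0.72 (standard error 0.45) by I.P. and -1.25 (standard error 1.34) by S.C. Without S.C. mouse 1 the S.C. value was -5.13, and without S.C. mouse 2 it was -0.33. For Nr1d2 it was 0.25 (standard error 0.34) by I.P. (-0.01 without I.P. mouse 4) and 0.94 (standard error 0.68) by S.C., the latter -0.44 without S.C. mouse 2 and 1.62 without S.C. mouse 1. Exons of Nr1d1 share 263 of 3077 bases (8.55%) with Thra on the opposite strand, and the strand setting of the counts is not stated, so reads there cannot be told apart. Thra was at 8.43 and 0.433 CPM in S.C. mice 1 and 2, the same order as Nr1d1, and at 0.856 to 3.92 CPM in the other mice.

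Dbp, the output gene, on chromosome 7 from 45705088 to 45710203, was at 13.0 and 9.70 CPM in the DMSO mice. It was at 11.7, 12.4, 6.72 and 7.56 CPM in I.P. mice 1 to 4, and at 18.7 and 9.39 CPM in the S.C. mice. I.P. mice 3 and 4 lay below both DMSO mice, S.C. mouse 1 lay above them, and the groups overlapped. Dbp differed on the log2 scale by -0.25 (standard error 0.36) by I.P. and 0.31 (standard error 0.58) by S.C., and without S.C. mouse 1 the latter was -0.28. Exons of Dbp share 539 of 2993 bases (18%) with Sphk2 on the opposite strand, which was at 24.4 to 45.3 CPM.

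**Figure D2:**
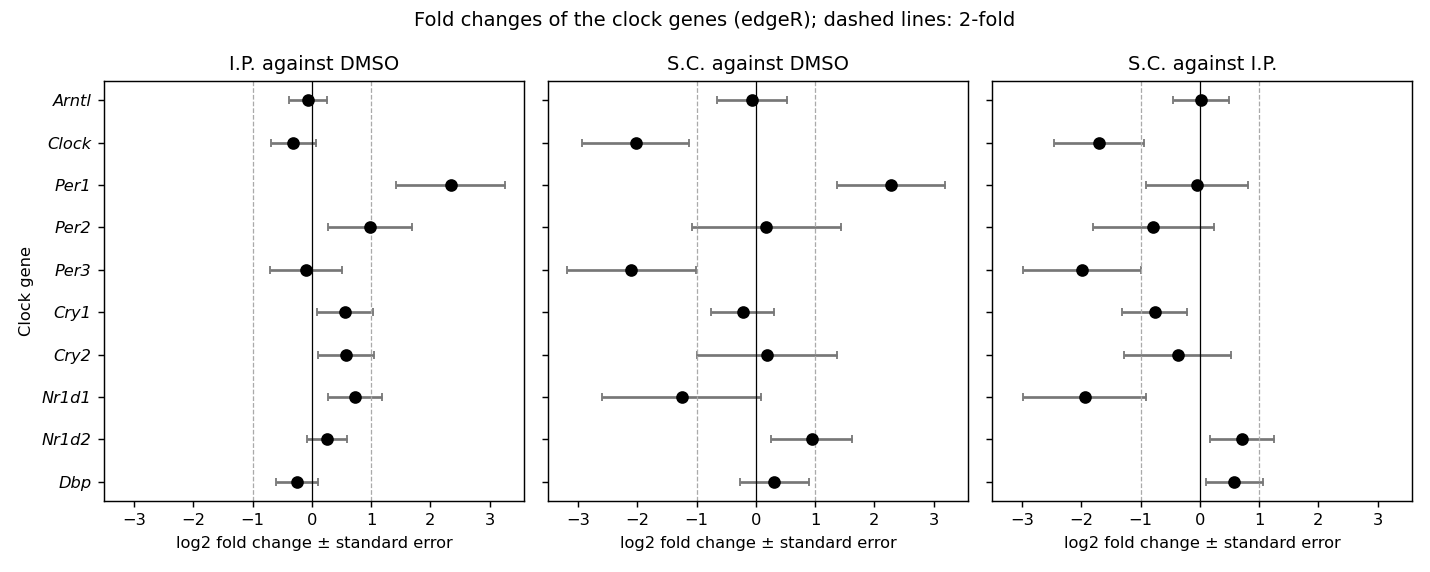
Log2 fold change of each clock gene with its standard error from edgeR, for I.P. against DMSO, S.C. against DMSO and S.C. against I.P., with dashed lines at 2-fold. Per1 lies at 2.34 and 2.28 in the comparisons with DMSO, while Clock, Per3 and Nr1d1 lie below -1 in both comparisons of the S.C. mice.

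All 10 members passed the filter on low counts in each comparison. Genes were called as the study did, at an unadjusted P below 0.05 and a difference of 2-fold or more. By I.P. 1 of 10 members (Per1) was called, where the criterion called 2% of 12174 genes. By S.C. 1 of 10 (Per1) was called, where it called 5.06% of 11680 genes. Between S.C. and I.P. mice 0 of 10 were called, where it called 7.05% of 12206 genes. Since the members were chosen with these levels known, nothing is read from these counts. In each comparison 0 members, and 0% of all genes, had a Benjamini-Hochberg adjusted p under 0.05 by edgeR's quasi-likelihood test. Members with an unadjusted P under 0.05 numbered 1, 1 and 0, and DESeq2 gave 0 members an adjusted p under 0.05 in any comparison. The DESeq2 calls among members were 1 by I.P. (Per1), 2 by S.C. (Per1 and Clock), and 2 between the routes (Clock and Nr1d1).

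By I.P. the treated and DMSO mice did not overlap for 1 of 10 members (Per1), against 14.2% of all genes tested. By S.C. this held for 3 of 10 (Per1, Clock and Per3), against 34.4%. Between the routes the groups did not overlap for 3 of 10 (Clock, Per3 and Nr1d1), against 18.5%. The median log2 fold change of the members was 0.41 by I.P., 0.06 by S.C. and -0.57 between S.C. and I.P. mice, beside 0.02 for all genes tested in each comparison. When only library size was used for scaling, the S.C. median of the members was -0.10 and that of all genes -0.13.

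The directly compared routes, which may also differ in dose, separated Clock, Per3 and Nr1d1. S.C. minus I.P. on the log2 scale came to -1.70 (standard error 0.76) for Clock, -1.99 (standard error 1.0) for Per3 and -1.95 (standard error 1.04) for Nr1d1. For Nr1d1 it was -5.83 without S.C. mouse 1 and -1.01 without S.C. mouse 2. For Clock it was -0.93 without S.C. mouse 1 and -3.50 without S.C. mouse 2. For Per1, Per2, Cry1, Cry2, Arntl, Nr1d2 and Dbp it lay between -0.78 and 0.71, with standard errors of 0.48 to 1.02. Without S.C. mouse 1 or 2 it was 0.51 or -3.06 for Cry2, 1.39 or -0.64 for Nr1d2, 0.49 or -0.70 for Arntl, -2.84 or 0.02 for Per2 and -0.76 or 0.42 for Per1. Dbp was at -0.01 without S.C. mouse 1.

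The members also differed more between the S.C. mice than between the DMSO mice. Of the 10 members, 7 differed by more than 2-fold between S.C. mice 1 and 2, and 1 (Per1) between DMSO mice 1 and 2. Over the 9325 genes that averaged 5 CPM or more these shares were 33.3% and 5.34%. Per2, among the 7, and Per3 averaged less than 5 CPM and are not in that set. The median absolute log2 difference was 1.62 for the members between the S.C. mice and 0.40 between the DMSO mice, beside 0.68 and 0.29 over those genes. The ratio of the higher to the lower S.C. mouse was 28.6 for Nr1d1, 12.1 for Cry2, 7.30 for Per2, 6.03 for Clock and 4.12 for Nr1d2. S.C. mouse 1 was the higher for Nr1d1, Per1, Per2 and Dbp, and S.C. mouse 2 for Clock, Cry2, Nr1d2 and Arntl. The gap in Dbp over Arntl (log2) was 1.09 in S.C. mouse 1 and -1.09 in S.C. mouse 2, against -0.09 and -0.73 in the DMSO mice and -1.03 to 0.26 in the I.P. mice. The melanoma marker sum was 2925 CPM in S.C. mouse 1 and 695 in S.C. mouse 2. Of the macrophage markers, Csf1r was at 345.5 and 1119 CPM in those mice. Emr1, Itgam, Mrc1 and Mertk were also lower in S.C. mouse 1, and Cd68, C1qa, C1qb and Fcgr1 were higher. The part of any of these markers in the differences between the S.C. mice was not tested.

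**Figure D3:**
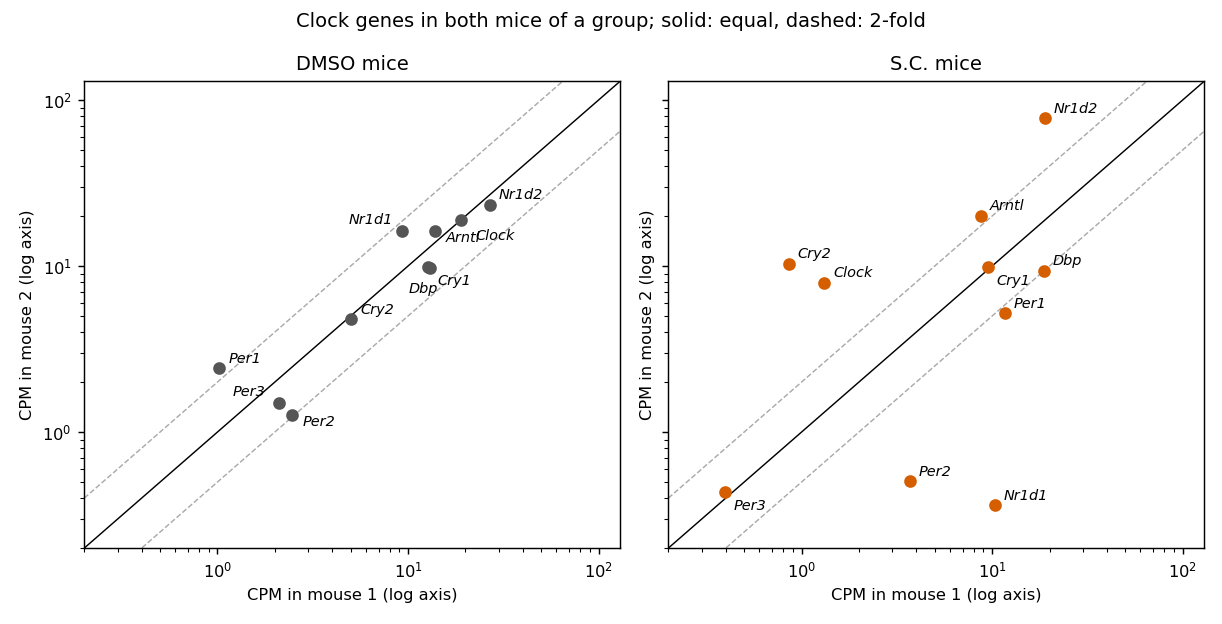
CPM of each clock gene in mouse 1 (x axis) against mouse 2 (y axis) of the DMSO group and of the S.C. group, both axes logarithmic, with a solid line at equal levels and dashed lines at 2-fold. In the DMSO mice 9 of 10 genes lie within 2-fold, in the S.C. mice 3 of 10.

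A wider list of 25 clock genes was described to see whether others moved with the members. It held the paralogues Arntl2 and Npas2, the ROR activators, further repressors, D-box factors, the kinases and ubiquitin enzymes that set the life of PER and CRY, and corepressors. By I.P. 21 were tested, 13 higher and 8 lower, with a median log2 fold change of 0.19, and 1 was called, Usp2. By S.C. 19 were tested, 14 higher and 5 lower (12 and 7 with library size only), with a median of 0.34, and 1 was called, Nfil3. Between the routes 20 were tested and 2 were called, Nfil3 (higher by S.C.) and Fbxl21 (lower). Of all genes tested, the criterion called 2% by I.P., 5.06% by S.C. and 7.05% between the routes. Nothing about clock genes is read from the counts of called genes on this list. Nfil3 was no longer called without I.P. mouse 3 (1.37), I.P. mouse 4 (1.34) or S.C. mouse 2 (1.34), and Fbxl21 not without either S.C. mouse. Adjusted p-values over all genes (edgeR) were 0.459 or more for this list, so that 0 passed, while 1, 1 and 2 had an unadjusted P under 0.05.

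Usp2, a clock-driven deubiquitinase, was at 6.61 and 3.75 CPM in the DMSO mice, 28.1, 9.30, 8.74 and 16.5 in I.P. mice 1 to 4, and 12.1 and 6.43 in the S.C. mice. Both DMSO mice lay below every I.P. mouse, and I.P. mouse 1 was highest, as for Per1. Its log2 fold change by I.P. was 1.59 (standard error 0.55, edgeR adjusted p = 0.98), and the call was lost without DMSO mouse 2, at 1.24. Nfil3 encodes the repressor that competes with DBP at D-boxes. It was at 34.4 and 30.03 CPM in the DMSO mice, 97.2, 24.8, 33.2 and 29.3 in I.P. mice 1 to 4, and 114 and 146 in the S.C. mice. Both S.C. mice and I.P. mouse 1 stood above the other 5 mice. Its log2 fold change by S.C. was 2.02 (standard error 0.33, edgeR adjusted p = 0.746), and between 1.81 and 2.17 when any mouse was left out.

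Genes of this list next by P were not called. By I.P. these were the ROR gene Rora, at a log2 fold change of 1.01 (standard error 0.46), the deacetylase gene Sirt1, at 0.85 (standard error 0.42), and the repressor gene Bhlhe40, at 0.63 (standard error 0.35). By S.C. these were Sirt1 at 1.52 (standard error 0.75), Bhlhe40 at 0.53 (standard error 0.33) and the cell cycle kinase gene Wee1, a clock output, at -0.83 (standard error 0.54). Of the S.C. mice only mouse 2 was high for Sirt1, at 45.9 CPM against 10.7 in S.C. mouse 1 and 9.74 and 9.93 in the DMSO mice. I.P. mice 1 to 4 were at 27.5, 9.36, 14.6 and 19.6 CPM. The value by S.C. was 0.09 without S.C. mouse 2 and 2.21 without S.C. mouse 1. Wee1 was at 36.6 and 42.0 CPM in the DMSO mice and 12.1 and 31.9 in S.C. mice 1 and 2, and its value was -0.31 without S.C. mouse 1 and -1.72 without S.C. mouse 2. Between the routes Wee1 was at -1.01 (standard error 0.45), or -0.48 and -1.86 without those mice, and Hdac3, a REV-ERB corepressor gene, at 0.66 (standard error 0.36), or -0.12 without S.C. mouse 1 and 1.15 without S.C. mouse 2. Fbxl21, a ligase gene for CRY, had 0 counts in both S.C. mice, which allows up to 3 counts in each, and 3, 7, 11 and 21 in I.P. mice 1 to 4. No fold is given for it.

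Per1 is also a glucocorticoid-induced and an immediate early gene, and its levels can be set beside those groups. Of 11 glucocorticoid-induced genes, all 11 were higher by I.P. (median log2 fold change 0.99) and 4 were called, Sgk1, Tsc22d3, Fkbp5 and Klf9. The share called among all genes tested by I.P. was 2%. Tsc22d3, which encodes the anti-inflammatory protein GILZ, was at 141 and 165 CPM in the DMSO mice, 577, 342, 241 and 657 in I.P. mice 1 to 4, and 272 and 245 in the S.C. mice. Fkbp5, a cochaperone gene of the glucocorticoid receptor, was at 15 and 19.1 CPM in the DMSO mice, 99.9, 30.3, 37.6 and 73.9 in I.P. mice 1 to 4, and 4.55 and 9.46 in the S.C. mice. For both genes the DMSO mice lay below all 4 I.P. mice, with I.P. mice 1 and 4 highest, and for Fkbp5 both S.C. mice lay below them. The log2 fold change by I.P. was 1.56 (standard error 0.41) for Tsc22d3, 1.82 (standard error 0.50) for Fkbp5, 1.08 (standard error 0.27) for Sgk1 and 3.17 (standard error 1.01) for Klf9, with edgeR adjusted p of 0.98 each. Sgk1 was no longer called without DMSO mouse 2 (0.88) or without I.P. mouse 4 (0.93).

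By S.C. 10 of the glucocorticoid-induced genes were tested, 6 higher and 4 lower. Sgk1 (log2 fold change 2.0, standard error 0.41) and Dusp1 (2.74, standard error 0.55) were called as higher and the scavenger receptor gene Cd163 (-2.41, standard error 0.60) as lower. Between the routes 1 was called as higher by S.C. (Dusp1) and 4 as lower, Fkbp5 (-3.08, standard error 0.63), Cd163 (-3.14, standard error 0.66), Mt2 and Zbtb16. Among all genes tested, the share called was 5.06% by S.C. and 7.05% between the routes. Only Tsc22d3 and Sgk1 of this list lay above both DMSO mice in all 6 treated mice, while Fkbp5 lay above them by I.P. and below them by S.C. Cd163 and Zbtb16 also lay below both DMSO mice in both S.C. mice. Treated and DMSO mice did not overlap for 4 of 11 tested genes of the list by I.P., against 14.2% of all genes tested. By S.C. this held for 6 of 10, in either direction, against 34.4%. The lowest edgeR adjusted p of the list in any comparison was 0.268, so none passed, while 4 by I.P., 4 by S.C. and 6 between the routes had an unadjusted P under 0.05.

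Of 8 immediate early genes, 7 were higher by I.P. (median log2 fold change 1.25) with 0 called, and 8 were higher by S.C. (median 2.42) with 7 called. Among all genes tested, 2% were called by I.P. and 5.06% by S.C. By I.P. 0 had an unadjusted P under 0.05 in edgeR's quasi-likelihood test and 0 an adjusted p under 0.05. Nr4a1, an orphan nuclear receptor gene, was at 7.76 and 6.18 CPM in the DMSO mice, 163, 6.79, 4.99 and 15.7 in I.P. mice 1 to 4, and 258 and 271 in the S.C. mice. Fosb, an AP-1 subunit gene, was at 1.91 and 0.866 CPM in the DMSO mice, 69.0, 0.55, 1.18 and 0.90 in I.P. mice 1 to 4, and 54.6 and 28.3 in the S.C. mice. I.P. mouse 1 and both S.C. mice were highest for these genes, the same 3 mice as for Nfil3, and I.P. mouse 4 was above both DMSO mice for Nr4a1. I.P. mice 2 and 3 lay within or below the DMSO range for both genes and above it for Per1. Sik1, on the same list, was at 2.04 and 6.18 CPM in the DMSO mice and 24.8, 5.08, 6.84 and 7.02 in I.P. mice 1 to 4. By S.C. edgeR put the log2 difference at 5.25 (standard error 0.37, edgeR adjusted p = 0.131) for Nr4a1 and 4.90 (standard error 0.69, edgeR adjusted p = 0.563) for Fosb. By I.P. it was 2.76 (standard error 1.44) for Nr4a1 and 1.40 (standard error 0.76) for Sik1, a kinase gene. Without I.P. mouse 1 these were 0.38 and 0.60, and for Sik1 it was 2.42 without DMSO mouse 2. Between the routes Crem, a cAMP-responsive gene, was called at 1.56 (standard error 0.36), a call lost without S.C. mouse 2 (0.85; 2.03 without S.C. mouse 1). Nr4a1 was at 2.49 (standard error 1.2) there, and at 4.90 without I.P. mouse 1. The part of either group in the Per1 levels was not tested.

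**Figure D4:**
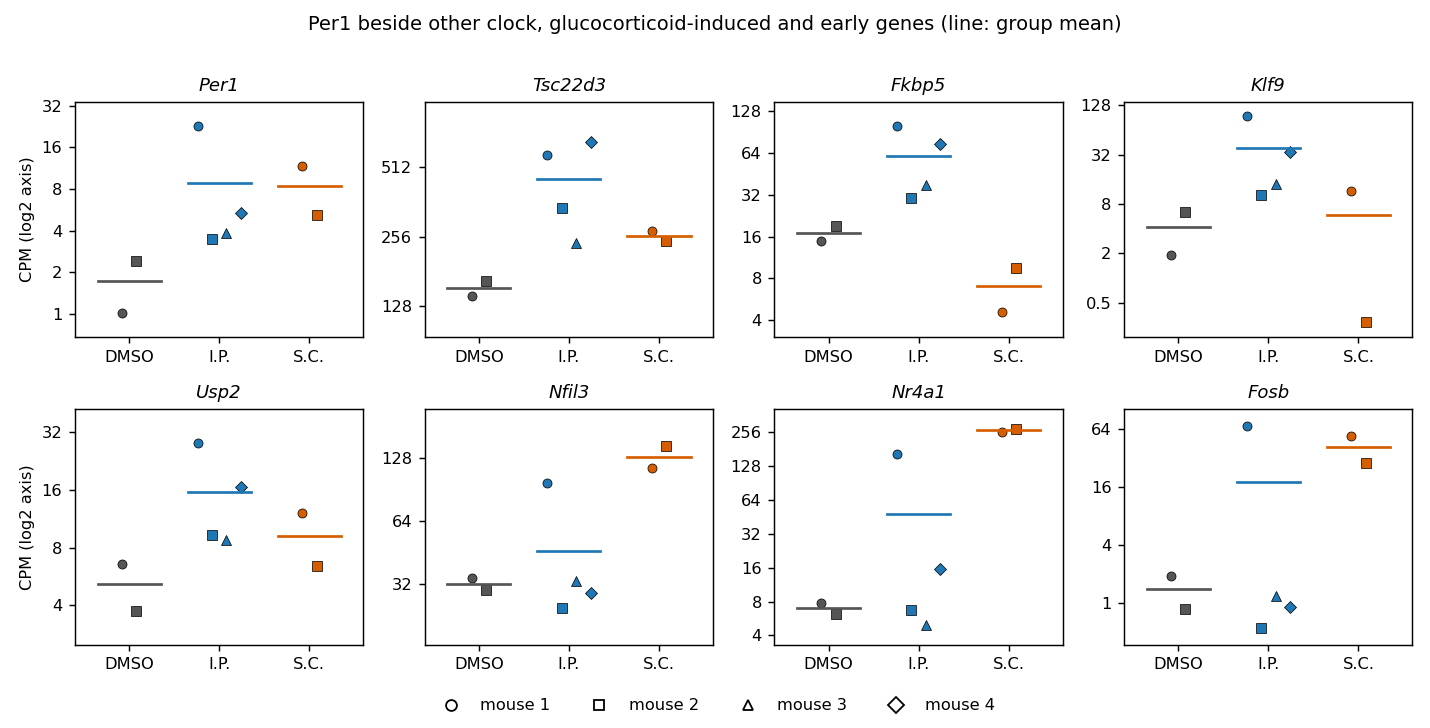
CPM of Per1, of the glucocorticoid-induced genes Tsc22d3, Fkbp5 and Klf9, of the clock genes Usp2 and Nfil3 and of the early genes Nr4a1 and Fosb in each mouse on log2 axes, with a symbol shape for each mouse number and the group mean as a line. All 4 I.P. mice are above both DMSO mice for Per1, Tsc22d3, Fkbp5, Klf9 and Usp2, and Nfil3, Nr4a1 and Fosb are highest in I.P. mouse 1 and both S.C. mice.

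Macrophage genes that REV-ERB proteins are known to repress were Cx3cr1, Mmp9, Ccl2 and Il6, of which 3 were tested by I.P. and by S.C. Il6 had too few counts for both, at 0 to 4.30 CPM. None was called in any comparison, against 2% of all genes by I.P., 5.06% by S.C. and 7.05% between the routes. In edgeR's quasi-likelihood test 1 (Ccl2, by I.P.) had an unadjusted P under 0.05, with an adjusted p of 0.98. Ccl2, a monocyte chemokine gene, was at 2568 and 2723 CPM in the DMSO mice, 1786, 1711, 1561 and 1212 in I.P. mice 1 to 4, and 2400 and 1346 in the S.C. mice. All 6 treated mice lay below both DMSO mice, with log2 fold changes of -0.76 (standard error 0.24) by I.P. and -0.50 (standard error 0.38) by S.C. Cx3cr1, the fractalkine receptor gene, was at 106 and 51.6 CPM in the DMSO mice, 2.72, 51.3, 28.4 and 32.5 in I.P. mice 1 to 4, and 69.2 and 105 in the S.C. mice. All 4 I.P. mice lay below both DMSO mice, I.P. mouse 1 lowest and I.P. mouse 2 nearly level with DMSO mouse 2. The S.C. mice lay within the range of the DMSO mice. Treated and DMSO mice did not overlap for 2 of 3 tested genes of this list by I.P., against 14.2% of all genes tested. By S.C. this held for 1 of 3 (Ccl2), against 34.4%. For Cx3cr1 the fitted log2 difference was -1.45 (standard error 0.79) by I.P. and 0.15 (standard error 0.46) by S.C. By I.P. it ran from -1.90 (without I.P. mouse 2) to -0.85 (without DMSO mouse 1) when a mouse was left out. Cx3cr1 met the criterion without I.P. mouse 1 (-1.07) and without I.P. mouse 2. Any relation of these genes to the Nr1d1 or Nr1d2 levels was not tested. Between the routes Cx3cr1 was at 1.63 (standard error 0.79) and Ccl2 at 0.28 (standard error 0.30).

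Patterns across the 8 mice were compared with those of Dbp and Arntl over 9324 genes, by Pearson correlation of log2 CPM, as a description in which mice share groups and library features. Most like Dbp were Fam69a (0.94), Ripply3 (0.92), Wbp11 (0.92), Vps29 (0.92) and Tecr (0.91), and most opposite were Itpripl2 (-0.94), Aff1 (-0.94), App (-0.94), Trpm2 (-0.92) and Tti2 (-0.92). Most like Arntl were Nfs1 (0.97), Colec12 (0.97), Nudcd3 (0.96), Dgcr8 (0.96) and B230219D22Rik (0.96), and most opposite were 2010012O05Rik (-0.98), Med10 (-0.96), Mrps11 (-0.96), Ccdc23 (-0.95) and Zmat5 (-0.95). None of these 20 genes is a member or on the wider list.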

How the data were processed

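RNA-seq counts of sorted TAMs from 8 mice were used. The counts were deposited by the authors as whole numbers per gene symbol without normalization, after alignment to mm10. The methods name bowtie2 and RSEM, the submitters' processing notes name TopHat2 and edgeR, and the gene annotation and strand setting are not given in the sources used here. Mice were grouped by their sample labels, and p-values measure the spread between mice. The software was edgeR 4.0.16 and DESeq2 1.42.0 under R 4.3.3. Genes were kept by filterByExpr (minimum count 10, minimum total count 15), scaled by TMM, and tested with edgeR's two-sided quasi-likelihood test in a separate fit for every 2 groups compared. Benjamini-Hochberg adjustment ran over all genes tested. Standard errors were obtained as the absolute log2 fold change over the root of the F statistic. Log2 CPM used a prior count of 2. For a single gene, exact two-sided permutation of mice cannot give a p below 0.133 with 4 mice against 2 or 0.333 with 2 against 2, so none was run. The procedure was tested on simulated data.

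The members and lists were chosen with earlier results of these data known. The genes named are all members, the 4 of the wider clock list and the 2 of each other list with the smallest P per comparison, and the 5 most and least like Dbp and Arntl. The other genes that met the criterion were named after their values were seen, Klf9, Fkbp5, Cd163, Mt2, Zbtb16 and Dusp1 among them. The repressor Ciart (Gm129 in the counts) was on the wider list. Positions are from GENCODE vM21 (GRCm38). Alternatives were no filter, RLE size factors, library size only, DESeq2, the likelihood ratio test, a joint fit of the 3 groups, a replicate block and leaving out each mouse. A block with crossed numbers was chosen after seeing the data.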

Additional observations from a re-analysis of the deposited data

Results flagged for a closer look

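Among the 4 I.P. mice, 6 of the 29 genes examined had a mouse whose gap to its nearest neighbour exceeded Dixon's 95% value. Chance passes that value in about 1 of 20 groups of independent, normally spread values. Here unlogged CPM were used and the genes were chosen partly by P in these mice, so the 6 are not read against that rate. I.P. mouse 1 was far above the others for 5 of them. Per1 was at 22.8 CPM there against 3.49 to 5.40 in the other mice, and Nfil3 at 97.2 CPM against 24.8 to 33.2. Nr4a1 was at 163 CPM against 4.99 to 15.7, Sik1 at 24.8 CPM against 5.08 to 7.02, and Fosb at 69.0 CPM against 0.55 to 1.18. I.P. mouse 4 was far above the others for Cry2, at 13.0 CPM against 4.88 to 6.19.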

How the results depend on the processing

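The criterion was met by 1 clock member by I.P., 1 by S.C. and 0 between the routes. By I.P. leaving out either DMSO mouse brought it to 0 (range 0 to 1), and no other planned setting changed it. By S.C. it was 2 with no filter, the likelihood ratio test or DESeq2, 0 with library size only, and 0 to 5 when mice were left out. The 0 came without either DMSO mouse, the 5 without S.C. mouse 1 and 3 without S.C. mouse 2. Between the routes it was 1 with no filter, library size only or the replicate block, 2 with the likelihood ratio test, DESeq2 or all 3 groups in 1 fit, and 0 to 3 when mice were left out, the 3 without S.C. mouse 1 and 2 without S.C. mouse 2. For the wider list the count by I.P. was 2 with the likelihood ratio test or DESeq2 and 0 to 2 when mice were left out (0 without DMSO mouse 2, 2 without I.P. mouse 2 or 3). By S.C. it was 2 with no filter or DESeq2, 4 with all 3 groups in 1 fit, and 1 to 6 when mice were left out (4 and 6 without S.C. mouse 1 or 2). Between the routes it was 1 with the replicate block and 0 to 4 when mice were left out (0 without I.P. mouse 3 or 4, 4 without S.C. mouse 1). Over all genes 243, 591 and 860 met the criterion. By I.P. it was 160 with all 3 groups in 1 fit and 116 to 361 when mice were left out (116 without DMSO mouse 1). By S.C. it was 113 to 3432 (206 and 113 without DMSO mouse 1 or 2, 2989 and 3432 without S.C. mouse 1 or 2), and between the routes 389 with the replicate block and 632 to 2115 (2003 and 2115 without S.C. mouse 1 or 2). With 1 S.C. mouse left, that mouse is assumed to vary like the others, and the cause of the other changes was not tested. By S.C. 268 were higher and 323 lower, against 196 and 429 with library size only and 343 and 305 with DESeq2. By I.P. 186 were higher and 57 lower, against 143 and 148 with the replicate block. Between the routes 294 were higher by S.C. and 566 lower, against 200 and 189 with the replicate block. Same-numbered mice shared only a number (correlations of deviations -0.187 to 0.17), and under the replicate block Nr1d1 was called between the routes. The member called by S.C. was Clock and not Per1 under the replicate block, with all 3 groups in 1 fit, and with the S.C. numbers crossed, where 475 genes were called.

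Fold changes of the members kept their sign in 67 of 70, 76 of 80 and 68 of 70 values under the other settings and in 55 of 60, 33 of 40 and 50 of 60 values with a mouse left out, by I.P., by S.C. and between the routes. Other values turned sign when mice were left out. Cx3cr1 by S.C. ran from -0.28 to 0.75, Hdac3 between the routes from -0.12 to 1.15, and Ccl2 between the routes from -0.21 to 0.64. Genes with an adjusted p under 0.05 numbered 19, 107 and 234 with DESeq2 and 10, 179 and 265 with the likelihood ratio test. Depth limits Per3, Nr1d1 and Per2 in the S.C. mice, where counts of 5 to 7 were seen.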
